A study of Mus musculus with 3 samples.

Results

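RNA of 48 genes of the Wnt signalling pathway was examined in Tet1 knockout mouse embryonic stem (ES) cells and in wild type (WT) ones, Tet1 being a dioxygenase that acts on methylated cytosine in DNA. The members were named as a list with roles: 19 Wnt ligands, 12 receptors, 9 secreted inhibitors, 7 transducers, TCF factors and feedback genes, and the ligand-modifying enzyme gene Porcn. Every non-control spot of the scanner files whose gene name, accession or synonym matched a member was taken, which gave 68 probes for all 48 genes, out of 27670 gene names on the array. Each sample had 1 array of a single dye (Cy3). The knockout group held KO 4 and KO 22, and the wild type group held 1 sample with no replicate. All samples were of the line V6.5 on a mixed 129/C57BL6 background, grown on irradiated feeder cells with leukaemia inhibitory factor and preplated before extraction. The sources used here describe neither the deletion nor whether KO 4 and KO 22 are separate clones or cultures. Any p-value therefore reflects how far these 2 samples lay apart, a spread that may be technical.

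Wnt ligands are secreted proteins that Porcn acylates in the endoplasmic reticulum and that bind Frizzled receptors together with Lrp5 or Lrp6. Receptor binding restrains the Axin-based complex that destroys beta-catenin (Ctnnb1), which then acts in the nucleus with the TCF factors Tcf7 and Lef1 on feedback genes such as Axin2, Nkd1 and Sp5. Secreted proteins of the Dkk and Sfrp families, Frzb and Wif1 limit the signal outside the cell. In mouse ES cells the pathway is known for supporting self-renewal, and in the early embryo Wnt3 is needed to form the primitive streak.

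The Tet1 probe read 214 (KO 4) and 195 (KO 22) in processed intensity in the knockout samples, against 721 in WT, a 3.85-fold lower level (-1.94 ± 0.09 on the log2 scale, limma adjusted p = 0.0529). Whether this probe lies in the deleted part was not tested. All 7 ES cell markers listed were well above background on an array or more, 3 of them higher on both knockout arrays (Nanog, Zfp42 and Klf4) and 3 lower (Pou5f1, Sox2 and Esrrb). Of the 43379 non-control spots, 62.2% to 62.8% carried the scanner flag for signal well above background on each array, and 0 were saturated. All arrays lie on 1 slide. Differences are knockout minus WT on log2 intensities scaled by the 75th percentile of each array, and the error given is limma's standard error for 2 arrays against 1. Moderation holds that error at or above 0.09, so an error of 0.09 is a shared minimum rather than a measured precision, and no spread of WT was measured.

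The test took in genes with a probe well above background on 1 array or more, and 41 of the 48 members qualified. In the values as reported, the largest differences from WT were those of ligands, of which Wnt7a and Wnt10b had dim probes. With another background correction (normexp) and quantile scaling, the differences of Wnt7a and Wnt10b shrank to 0.64 and 0.26. Of the 38 members well above background on all 3 arrays, Wnt3, Wnt7a and Wnt7b lay at least 2-fold above WT on both knockout arrays, where 0.927% of 16405 such genes did, and 0 lay at least 2-fold below (0.799%). Over all 41 members tested the measured values of 4 were past 2-fold upward on both (1.45% of all 17709 genes tested) and 0 downward (1.56%). The fourth, Wnt10b, was not well above background on WT, so its fold is only bounded. Wnt10b and the inhibitor gene Wif1 passed the background filter only through the knockout arrays and so had to lie higher there. Both knockout arrays lay above WT for 25 members (38.0% of all genes) and below it for 9 (45.5% of all genes), and the sides differed for 7. The median difference of the tested members was 0.17, against -0.03 over all genes tested. Fewer cells of a type and less RNA per cell cannot be told apart in these bulk samples.

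No member passed the test. Limma with Benjamini-Hochberg adjustment called 0 members higher and 0 lower at an adjusted p below 0.05, where 0.0339% and 0.322% of all genes were called. Before adjustment, 15 members were higher at a p below 0.05 (13.2% of all genes) and 5 were lower (15.0% of all genes). Other settings gave other counts. With an intensity trend in the variance prior, 11 members were called higher (8.31% of all genes) and 2 lower (10.7%). Wnt10b, which had to lie higher, was among these 11 and among the 15 higher before adjustment. When the filter asked for signal above background on every array, 5 were called higher (3.05%) and 0 lower (2.51%). The authors' log2 values gave 4 higher (2.86%) and 0 lower (2.92%), and normexp background correction together with quantile scaling gave 10 higher (9.18%) and 3 lower (10.8%). Wnt7a, Wnt7b, Wnt9a and Fzd1 were called higher in all 4 of these settings.

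**Figure D1:**
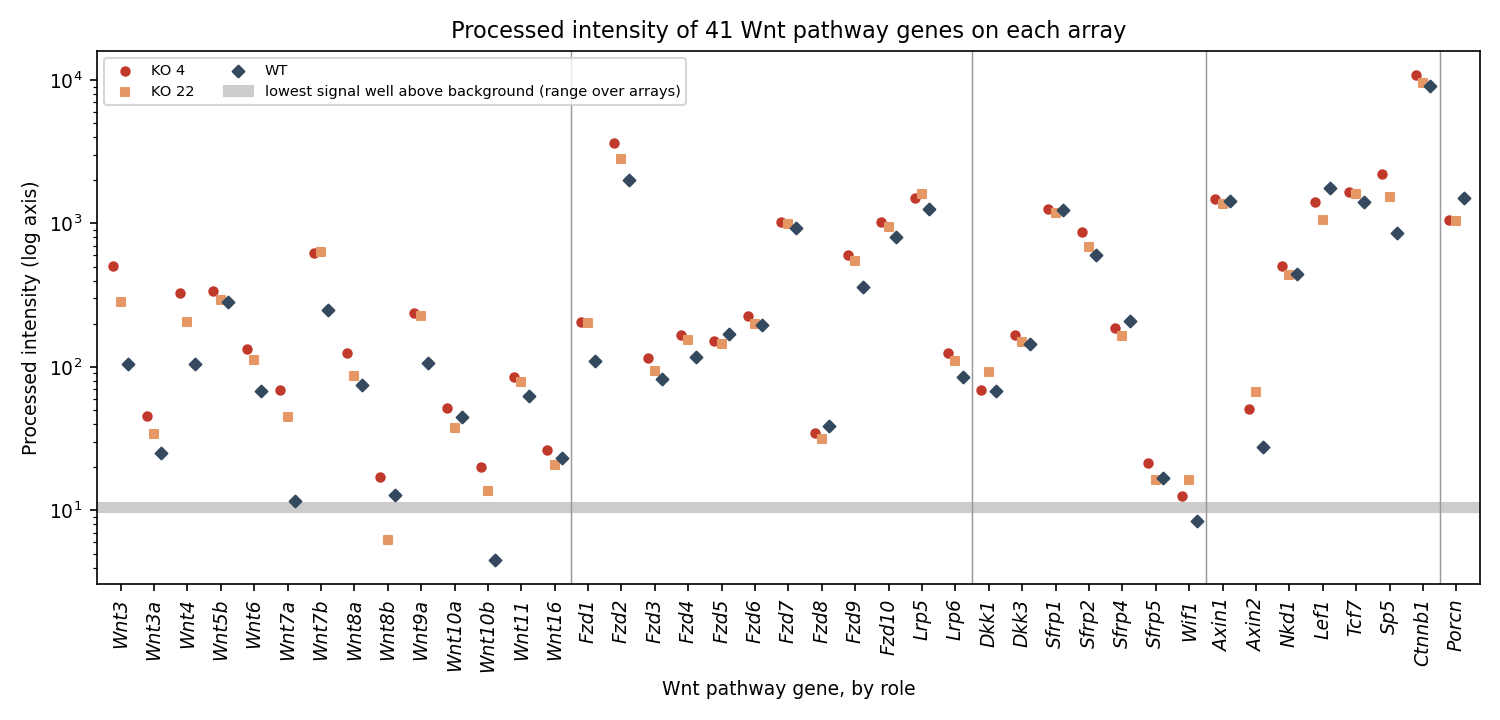
Processed intensity (log axis) of the 41 Wnt pathway genes tested, by role from ligands to Porcn, with KO 4, KO 22 and WT as separate symbols; the grey band spans the lowest signal well above background on the arrays. WT lies below both knockout arrays for Wnt3, Wnt4, Wnt7a, Wnt7b and Wnt9a, and above both for Lef1 and Porcn; each probe has its own brightness, so heights are not comparable between genes.

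Wnt7a, a ligand known for patterning the limb and the female reproductive tract, read 69.3 in intensity on KO 4 and 44.8 on KO 22, against 11.7 on WT. Its difference was 2.13 ± 0.25, a 4.38-fold higher level (limma adjusted p = 0.1, and 0.00787 with an intensity trend). The WT value lay close to the lowest signal well above background on that array (9.75), so the size of the Wnt7a difference is uncertain. It was 1.49 in the authors' log2 values and 0.64 after normexp correction with quantile scaling. The Wnt7a probe lies on chromosome 6 at 91447162 to 91447221 on build mm7, the build of the files.

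Wnt3, the ligand of primitive streak formation, gave 505 on KO 4 and 283 on KO 22, against 105 on WT. KO 4 and KO 22 stood 2.07 and 1.39 above WT, a 3.32-fold higher mean (1.73 ± 0.35, limma adjusted p = 0.122, and 0.0116 with an intensity trend). A second Wnt3 probe read 64.3 and 35.6 on KO 4 and KO 22, and on WT, at 11.3, it was not well above background. The knockout mean there was 3.89-fold the measured WT value, a ratio that is uncertain because the WT value is. This second probe passed the background filter only through the knockout arrays and so had to lie above WT. Both Wnt3 probes placed KO 4 above KO 22. They lie on chromosome 11 at 103925136 to 103925195 and 103926765 to 103926824 (mm7).

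Wnt7b, a ligand known from lung and placenta, gave 621 and 632 on KO 4 and KO 22, against 249 on WT. Its 2.31-fold higher mean (1.21 ± 0.13) was among the members with the lowest adjusted p (0.0971 in limma, shared with Wnt9a, and 0.00401 with an intensity trend). The Wnt7b probe lies on chromosome 15 at 85618386 to 85618445 (mm7). Wnt10b, a ligand known from mammary gland and bone, gave 20.2 and 13.6 on the knockout arrays and 4.54 on WT, where it was not well above background. Wnt10b was at least 1.56-fold higher in the knockout samples. It passed the background filter only through those arrays, so its limma adjusted p of 0.101 adds no support of its own.

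The RefSeq promoter table (GRCm38.p6) held 33 of the 48 members. The 250 bases before the start of transcription are shown for Wnt3, Wnt7a and Wnt10b, whose measured values were past 2-fold on both knockout arrays, since CpG dinucleotides, given in capitals, are the main sites of DNA methylation, on which Tet1 acts. Wnt3 (chr11:103773925-103774174, plus strand) held 22 CpGs, Wnt7a (chr6:91411354-91411603, minus strand) 34 and Wnt10b (chr15:98778151-98778400, minus strand) 14.
Wnt3: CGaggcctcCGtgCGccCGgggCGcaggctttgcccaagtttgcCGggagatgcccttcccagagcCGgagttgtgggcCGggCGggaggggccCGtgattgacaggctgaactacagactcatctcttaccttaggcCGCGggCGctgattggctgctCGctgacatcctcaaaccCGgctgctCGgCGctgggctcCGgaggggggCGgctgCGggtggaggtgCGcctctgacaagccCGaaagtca
Wnt7a: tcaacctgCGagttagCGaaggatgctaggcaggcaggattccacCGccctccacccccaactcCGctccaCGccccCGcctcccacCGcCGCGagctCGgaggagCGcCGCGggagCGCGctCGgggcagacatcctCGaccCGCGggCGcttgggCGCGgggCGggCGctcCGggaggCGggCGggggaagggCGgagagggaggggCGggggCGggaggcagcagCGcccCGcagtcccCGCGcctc
Wnt10b: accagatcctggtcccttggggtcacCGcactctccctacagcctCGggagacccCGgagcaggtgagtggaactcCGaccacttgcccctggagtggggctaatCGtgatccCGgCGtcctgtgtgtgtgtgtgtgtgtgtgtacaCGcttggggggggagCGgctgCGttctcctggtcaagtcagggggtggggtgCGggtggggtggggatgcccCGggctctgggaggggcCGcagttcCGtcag
The median over the 41 member promoters was 20 CpGs, against 6 over all 32851 promoters of the table, whose 75th percentile was 16. The promoters of Wnt3, Wnt7a and Wnt10b had more CpGs than 85.2%, 96.5% and 70.6% of all promoters. CpG-rich promoters were not limited to genes with large differences, since Wnt5b, at a difference of 0.03, had 35 CpGs in 1 of its 3 promoters. Methylation was not measured in these samples.

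The other ligands followed with smaller differences. Wnt4, known from kidney and gonad development, gave 325 and 205 on KO 4 and KO 22, against 104 on WT (1.18 ± 0.27, limma adjusted p = 0.132). Wnt9a, known from joint formation, gave 239 and 227, against 107 on WT (1.00 ± 0.10, limma adjusted p = 0.0971). Both knockout arrays lay above WT for each of these, and the knockout arrays differed by 0.51 for Wnt4. Wnt6 gave 133 and 111 on KO 4 and KO 22, against 67.5 on WT (0.72 ± 0.10, limma adjusted p = 0.102). Its second probe showed 1.17 in the same direction. Wnt3a, which maintains the progenitors of trunk mesoderm, gave 45.4 and 33.9 on the knockout arrays, against 24.95 on WT (0.53 ± 0.16, limma adjusted p = 0.169). With an intensity trend Wnt4, Wnt6 and Wnt9a were called and Wnt3a was not (limma adjusted p = 0.162).

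The remaining ligands lay closer to WT. Wnt5b, a ligand best known for signalling without beta-catenin, gave 340 and 294 on KO 4 and KO 22, against 284 on WT. Its difference was 0.03 ± 0.09, and a second probe gave 0.05. Wnt11 and Wnt8a had differences of 0.26 ± 0.09 and 0.36 ± 0.21, and Wnt10a and Wnt16 of -0.14 ± 0.18 and -0.10 ± 0.13. The knockout arrays disagreed on Wnt8b, which is known from the forebrain. It gave 17.2 on KO 4 and 6.24 on KO 22, where it was not well above background, against 12.9 on WT. Wnt1, Wnt2, Wnt2b, Wnt5a and Wnt9b were not well above background on any array, so 14 of 19 ligands were tested, with 11 above and 1 below WT on both knockout arrays (38.0% and 45.5% of all genes). The ligand below WT, Wnt16, differed by -0.00027 on KO 4, and among those above it Wnt5b differed by 0.00047 on KO 22. The 11 ligands above WT include Wnt10b, which had to lie higher. The median over the tested ligands was 0.72 on KO 4 and 0.53 on KO 22.

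Among the ligands, 4 pairs are next to each other in the reference order of protein-coding genes. Their probes lay 19.2 to 88.5 kb apart in the files. Of Wnt6 and Wnt10a on chromosome 1, Wnt6 differed by 0.72 and Wnt10a by -0.14. Wnt3a and Wnt9a, on chromosome 11, differed by 0.53 and 1.00. Wnt3 is beside Wnt9b and Wnt10b beside Wnt1, and in both of these pairs the second gene was not well above background on any array.

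**Figure D2:**
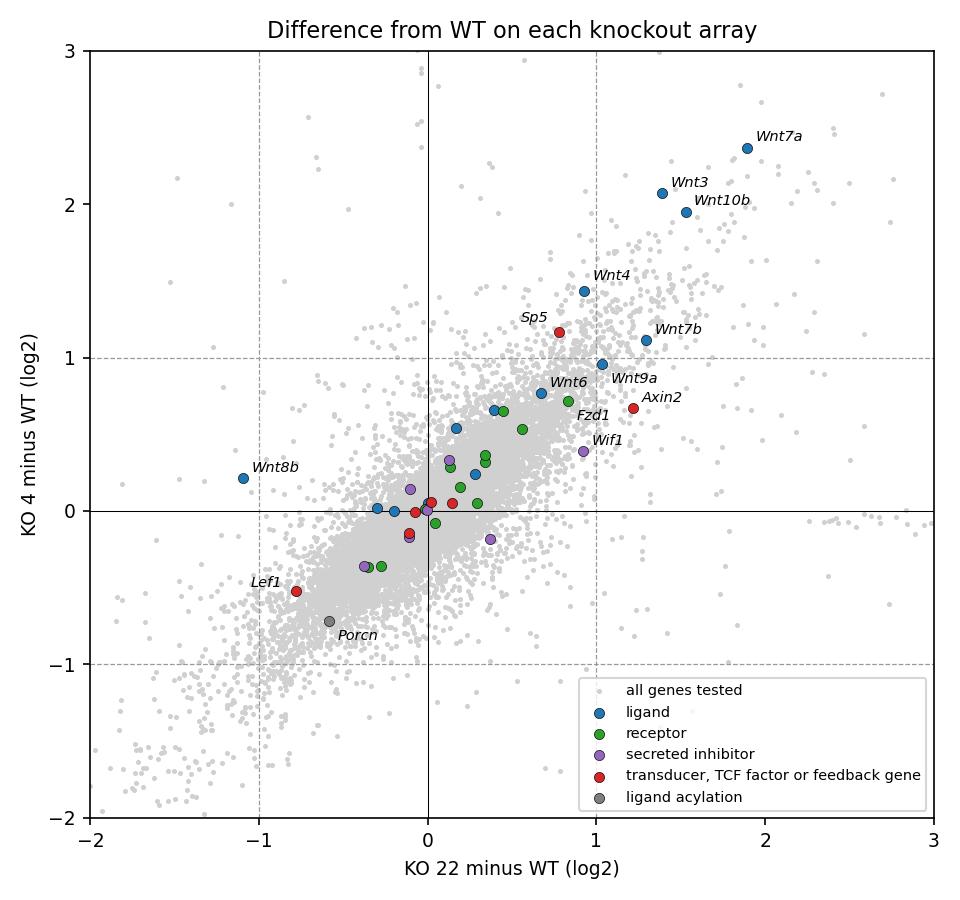
Difference from WT (log2) on KO 22 (horizontal axis) and KO 4 (vertical axis) for the 41 Wnt pathway genes, coloured by role, over all 17709 genes tested in grey; dashed lines mark 2-fold. Wnt3, Wnt7a and Wnt7b lie beyond 2-fold on both axes, as does Wnt10b, which was not well above background on WT, and Lef1 and Porcn below 0 on both; both axes subtract the same WT array, which spreads points along the diagonal.

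Porcn, the membrane enzyme that attaches the lipid without which Wnt ligands are not secreted, ran the other way. It gave 1058 on KO 4 and 1042 on KO 22, against 1511 on WT. Its mean was 1.57-fold lower in the knockout samples (-0.65 ± 0.11, limma adjusted p = 0.11, and 0.0103 with an intensity trend). The knockout arrays lay within 0.13 of each other, and the probe lies on chromosome X at 6627247 to 6627306 (mm7).

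All 12 receptor genes were tested, of which 8 lay above and 2 below WT on both knockout arrays (38.0% and 45.5% of all genes), with a median difference of 0.19. Fzd1 gave 207 and 201 on KO 4 and KO 22, against 109 on WT (0.77 ± 0.11, limma adjusted p = 0.102). Fzd2 gave 3614 and 2805, against 1995 on WT (0.55 ± 0.14, limma adjusted p = 0.143). Its second probe passed the background filter only through the knockout arrays and so had to lie higher there, by at least 1.35-fold. Fzd9, a receptor studied in bone and hippocampus, gave 601 and 548, against 360 on WT (0.55 ± 0.09, limma adjusted p = 0.108). The knockout arrays lay above WT for these Frizzled genes, and each was called with an intensity trend (limma adjusted p = 0.0138 for Fzd1, 0.0208 for Fzd2 and 0.0152 for Fzd9). Fzd7, a receptor known from pluripotent cells, gave 1022 and 997 on KO 4 and KO 22, against 937 on WT, with a difference of -0.02 ± 0.11. Fzd4 stood at 0.33, Fzd3 at 0.21, Fzd10 at 0.17 and Fzd6 at -0.0022, each with an error of 0.09 to 0.12. Fzd5 and Fzd8 were the lower receptors by the probes that stand for them, at -0.32 ± 0.10 and -0.36 ± 0.09.

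Lrp5 and Lrp6 are the co-receptors of canonical signalling. Lrp5 gave 1506 and 1599 on KO 4 and KO 22, against 1264 on WT (0.17 ± 0.15, limma adjusted p = 0.504). Lrp6 had a difference of 0.35 ± 0.09 by the brighter of its probes, which was matched to the gene by synonym. The other probe, matched by accession, gave 0.06. The Fzd5 probes likewise gave -0.32 (matched by synonym) and -0.03 (matched by accession), so the lower level of Fzd5 rests on the first of these.

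Of the 9 secreted inhibitors, 7 were tested, 2 lying above and 2 below WT on both knockout arrays (38.0% and 45.5% of all genes), and the median difference was 0.02. Sfrp1, which binds Wnt ligands in the extracellular space, gave 1267 and 1187 on KO 4 and KO 22, against 1241 on WT (-0.14 ± 0.09). Sfrp2, of the same family, gave 871 and 680, against 602 on WT (0.23 ± 0.13). Sfrp4 gave 186 and 165, against 208 on WT (-0.37 ± 0.09, limma adjusted p = 0.139), and was called lower only after normexp correction with quantile scaling (limma adjusted p = 0.0491). None of these 3 passed as reported, and Sfrp1 and Sfrp2 passed in no alternative. Dkk1, which blocks Lrp6, gave 69.3 on KO 4, 91.4 on KO 22 and 68.4 on WT, so the knockout arrays fell on either side of WT after scaling. Its probes gave 0.09 and -0.26. Wif1, which binds Wnt ligands, was well above background on KO 22 only, with 12.6 and 16.4 on KO 4 and KO 22 and 8.39 on WT. Wif1 is 1 of the 2 inhibitors above WT on both arrays, and no fold is given for it, since 1 knockout array measured it (limma adjusted p = 0.248). Dkk3 and Sfrp5 lay at 0.00 ± 0.09 and 0.02 ± 0.15, and Dkk2 and Frzb were not well above background on any array.

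All 7 transducers, TCF factors and feedback genes were tested. Sp5, a zinc-finger gene induced by beta-catenin, gave 2226 on KO 4 and 1529 on KO 22, against 863 on WT (0.97 ± 0.21, a 1.96-fold higher level, limma adjusted p = 0.128, and 0.0139 with an intensity trend). Axin2, the feedback inhibitor widely used as a reporter of the pathway, gave 50.6 and 66.5 on KO 4 and KO 22, against 27.6 on WT. Its difference was 0.94 ± 0.29 (limma adjusted p = 0.17, and 0.0567 with an intensity trend), 0.67 on KO 4 and 1.22 on KO 22. Sp5 and Axin2 lay above WT on both knockout arrays, Sp5 more so on KO 4 and Axin2 more so on KO 22. Nkd1, another feedback inhibitor, gave 507 and 434 on KO 4 and KO 22, against 443 on WT (-0.04 ± 0.09).

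Lef1, a TCF family factor that is itself a pathway target, had the other direction. It gave 1414 on KO 4 and 1063 on KO 22, against 1764 on WT, a 1.57-fold lower level (-0.65 ± 0.16, limma adjusted p = 0.138, and 0.0187 with an intensity trend). A second Lef1 probe, whose genomic positions run over 18162 bases on chromosome 3 (131041424 to 131059585, mm7) against 60 for the first (131060609 to 131060668), gave 357 and 242 on KO 4 and KO 22, against 503 on WT. Its difference was -0.90, and the remaining Lef1 probe was not well above background on any array. Both informative Lef1 probes thus placed KO 22 lowest and WT highest. Tcf7 gave 1669 and 1600 on the knockout arrays, against 1401 on WT (0.10 ± 0.10). Ctnnb1, printed in 10 spots, gave 10829 and 9463 on KO 4 and KO 22, against 9030 on WT (0.04 ± 0.09), and a second probe gave -0.02, but the probe for another transcript gave 0.36. Axin1, the scaffold of the destruction complex, had a difference of -0.13 ± 0.09.

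The motif CTTTGAT, a match to the site bound by TCF factors, was searched in the 250 bases before the start on both strands (as CTTTGAT or ATCAAAG). It was present in 3.21% of all promoters of the table and in 3 of the 41 member promoters, those of Sp5, Wnt11 and 1 of the 3 of Wnt5b. The Sp5 promoter (chr2:70474673-70474922, plus strand, GRCm38.p6) is shown because Sp5 had the largest difference among the feedback genes, and the match, in capitals, begins 104 bases before the start.
Sp5: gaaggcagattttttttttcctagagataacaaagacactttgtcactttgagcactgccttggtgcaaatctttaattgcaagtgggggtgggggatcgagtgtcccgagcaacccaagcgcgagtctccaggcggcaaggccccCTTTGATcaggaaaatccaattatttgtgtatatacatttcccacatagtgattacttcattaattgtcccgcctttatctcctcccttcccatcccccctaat
Sp5 held 6 CpGs in this window. The promoters of Axin2 and Lef1 held 0 matches, which says only that these letters are absent from that window.

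**Figure D3:**
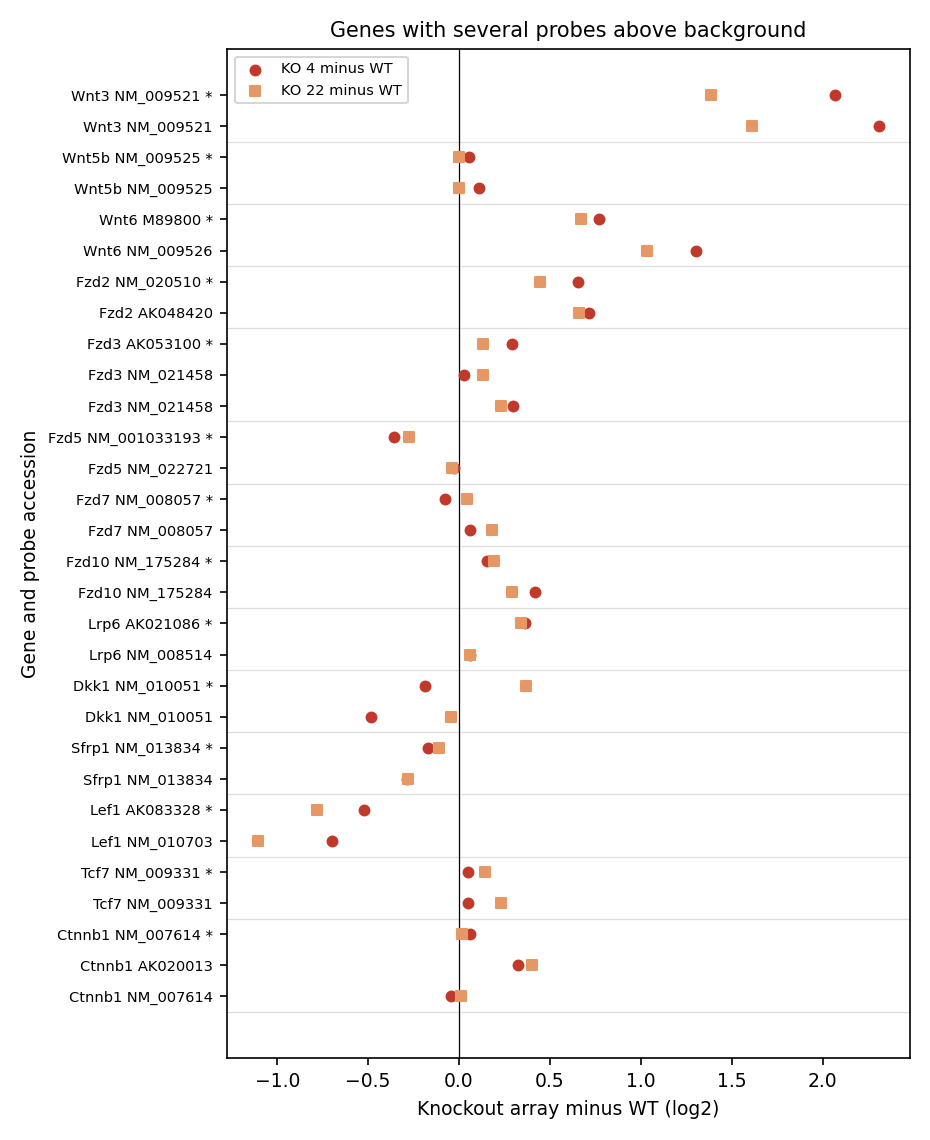
Difference from WT (log2) on KO 4 and KO 22 for every probe of the 14 genes with several probes above background, an asterisk marking the probe that stands for its gene. The probes of 11 genes had mean differences of the same sign, among them Wnt3, Wnt6, Fzd2 and Lef1, and those of Fzd7, Dkk1 and Ctnnb1 did not. The dimmer probes of Wnt3 and Fzd2 passed the background filter only through the knockout arrays and so had to lie higher there.

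A list of 65 other genes of the pathway was examined beside the members, and 58 were tested. Limma called 0 of them higher and 0 lower, with 18 higher and 3 lower before adjustment (p below 0.05, 13.2% and 15.0% of all genes). An intensity trend called 15 higher and 2 lower (8.31% and 10.7%). On both knockout arrays 36 lay above WT and 14 below it (38.0% and 45.5%), and the median difference was 0.14. Wls, the carrier that brings acylated Wnt ligands to the cell surface, gave 361 and 288 on KO 4 and KO 22, against 154 on WT (0.94 ± 0.12, limma adjusted p = 0.101). Rnf43, the ubiquitin ligase that removes Frizzled receptors and is a feedback target, gave 251 and 236, against 117 on WT (0.93 ± 0.09, limma adjusted p = 0.0971). Wls and Rnf43 lay above WT on both arrays, and both were called with an intensity trend (limma adjusted p = 0.00819 and 0.00763). T (brachyury) and Cdx2, targets of the pathway in the embryo, differed by 1.04 ± 0.28 and 0.97 ± 0.10. The TCF factors of this list, Tcf7l1 and Tcf7l2, lay above WT on both arrays (0.49 ± 0.09 and 0.77 ± 0.09), unlike Lef1. Lgr5, an R-spondin receptor, gave 13.3 on KO 4, 9.52 on KO 22 and 3.71 on WT, and was well above background on KO 4 only, so no fold is given for it. It passed the background filter only through KO 4 and so had to lie higher there. Lgr5 is nonetheless included in the counts of listed genes higher before adjustment and above WT on both knockout arrays.

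Prickle1, a planar cell polarity gene, gave 1211 and 875 on KO 4 and KO 22, against 2158 on WT (-1.19 ± 0.18, limma adjusted p = 0.105, and 0.0065 with an intensity trend). It was the listed gene at least 2-fold below WT on both arrays. Amer1, a scaffold of the beta-catenin destruction complex, had a difference of -0.65 ± 0.13 (limma adjusted p = 0.123), and Btrc, the ligase subunit that recognises phosphorylated beta-catenin, of -0.30 ± 0.09. Gsk3a, a kinase of that complex, differed in sign between the knockout arrays, at -0.98 on KO 4 and 0.37 on KO 22.

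**Figure D4:**
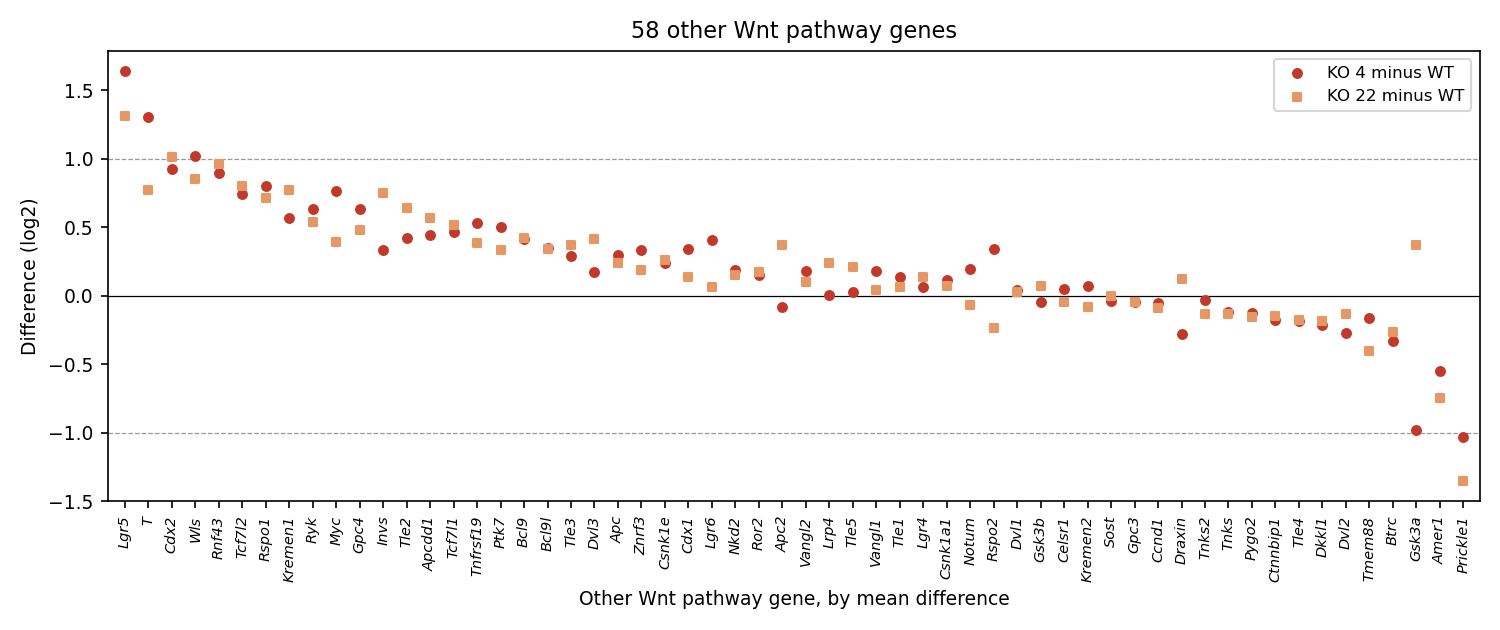
Difference from WT (log2) on KO 4 and KO 22 for the 58 other Wnt pathway genes tested, ordered by mean difference, with dashed lines at 2-fold. Prickle1 lies below the 2-fold line on both arrays, Lgr5, plotted above it, was well above background on KO 4 only, and Gsk3a has its arrays on either side of 0.

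Markers of other cell types also lay above or below WT, where of all genes 38.0% lay above and 45.5% below it on both knockout arrays. Of 14 fibroblast markers, listed because of the feeder cells, 5 lay above and 1 below WT on both knockout arrays, and their median difference was 0.78 for KO 4 and -0.08 for KO 22. Their summed level, in units of each array's 75th percentile, was 54.3 on KO 4 and 39.5 on KO 22, against 30.6 on WT. Tagln, a smooth muscle and fibroblast gene, made up 27.3, 18.6 and 8.16 of these, and without it the sum was 27.0 on KO 4 and 20.9 on KO 22, against 22.4 on WT. KO 4 likewise stood above KO 22 for Wnt3 (by 0.68), Wnt4 (0.51), Wnt7a (0.47), Wnt10b (0.42) and Sp5 (0.39), but not for Wnt7b (-0.18), Wnt9a (-0.08), Fzd1 (-0.12) or Axin2 (-0.55). Of 7 primitive streak markers tested, 5 were higher on both arrays, T, Eomes and Cdx2 among them, and 2 lower (Gsc and Evx1). Their summed level was 1.66 and 1.45 on KO 4 and KO 22, against 0.72 on WT. Fgf8 made up 0.86, 0.61 and 0.26 of these, and without it the sum was 0.80 and 0.84, against 0.46 on WT. Mixl1 was not well above background on any array. Of 9 trophoblast markers, 8 were higher, Cdx2 and Eomes among them too, and 1 lower (Ascl2). Their summed level was 231 and 203 on KO 4 and KO 22, against 128 on WT. Krt18 made up 131, 119 and 65.3 of these, and without it the sum was 99.6 and 84.0, against 63.2 on WT. Elf5 was not well above background on any array. All 7 markers of primitive endoderm lay below WT on both arrays, with a summed level of 0.83 and 0.76 on KO 4 and KO 22, against 2.39 on WT. The part of these cell types in the Wnt pathway differences was not tested.

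**Figure D5:**
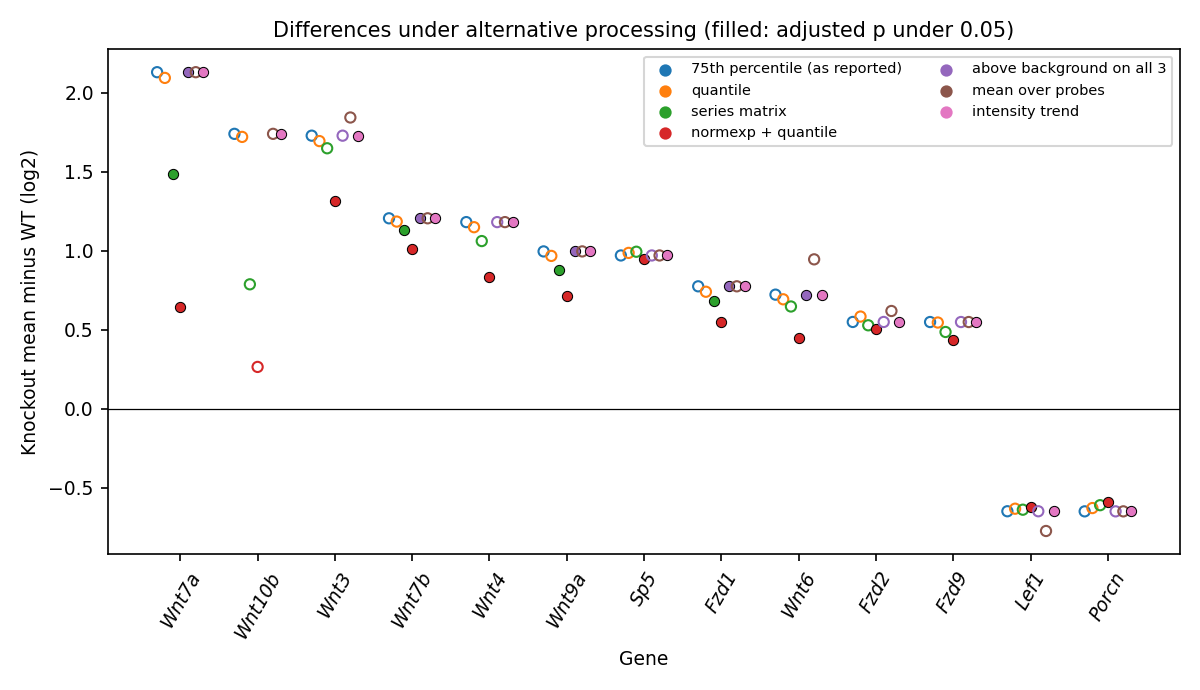
Mean difference from WT (log2) of the 13 Wnt pathway genes called with an intensity trend, under the ways of processing in the legend; filled points have a limma adjusted p below 0.05. Every gene keeps its direction, the differences of Wnt7a and Wnt10b shrink after normexp correction with quantile scaling (to 0.64 and 0.26), and 0 genes are filled in the values as reported.

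Spots near a member probe that were bright on 1 array alone, by at least 2 on the log2 scale within 2 rows and columns, can mark local flaws. Of the 68 member probes, 6 had such a neighbour bright on WT, 2 on KO 22 and 1 on KO 4. The brighter Wnt3 probe had a neighbour of this kind on KO 4 and on WT, and the Wnt7b probe on WT. The effect of these neighbours on the Wnt3 and Wnt7b values was not tested. The second Wnt3 probe had none, but it passed the background filter only through the knockout arrays, so it cannot check the first.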

How the data were processed

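The authors' deposited scanner files hold spot intensity values from Agilent Feature Extraction 10.1.1.1, background-subtracted and detrended within each array, per the file headers. The deposited series matrix gives each array as log2 values whose distributions nearly coincide, and the sources used here do not say how background was corrected. The submitters' processing notes name limma.

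Outlier-flagged spots were dropped, spots of a probe were averaged, and log2 processed intensity was scaled on the 75th percentile of the non-control spots of its array. Of 41174 probes, 79.5% found a gene in the RefSeq table (GRCm38.p6), 57 of the 68 member probes by accession, 8 by symbol and 3 by synonym. The brightest probe above background on at least 1 array stood for its gene, leaving 17709 genes. Limma 3.58.1 in R 4.3.3 (lmFit, eBayes) was fitted on all genes, with Benjamini-Hochberg adjustment over them calling genes below 0.05. Each gene leaves 1 residual degree of freedom, and the lone WT array is assumed to vary like the knockout arrays. A gene below background in 1 genotype has a lower bound, the bright mean against the higher of the dim value and the lowest signal well above background. This bound is approximate. The second Wnt3 probe was not well above background on WT at 11.3, though the lowest signal with that flag on WT was 9.75. Only the limma fit and the adjustment were tested on simulated gene values, in which WT was made to vary like the knockout arrays. The number of arrays limits the precision.

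Every member is accounted for by role. Values on each array were set to be given for members at least 2-fold apart on both arrays, for the 3 with the largest difference and the 3 brightest of each role, and for those with a bound, and other members were added so that each tested member has a value. The members, lists and alternatives were chosen with earlier results of these data known. The alternatives were quantile scaling, normexp with quantile scaling (leaving out 8 WT spots dimmer than their background), the series matrix values, the background filter, the mean over probes, an intensity trend, and each knockout array alone.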

Additional observations from a re-analysis of the deposited data

How the results depend on the processing

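The count of members called as reported, 0 higher and 0 lower, changed with the processing. It was 10 and 3 with normexp and quantile scaling together (without spots dimmer than their background), 4 and 0 from the series matrix, 5 and 0 with probes above background on every array, and 11 and 2 with an intensity trend; quantile scaling, the mean over probes and no filter kept it at 0. Of the other pathway genes the same 4 settings called 19, 7, 6 and 17, against 0, where of all genes they called 9.18%, 2.86%, 3.05% and 8.31% higher and 10.8%, 2.92%, 2.51% and 10.7% lower. Members whose measured values were at least 2-fold higher on both arrays numbered 4 as reported (1.45% of all genes) and 1 with normexp and quantile scaling (0.333%). They numbered 6 with either knockout array alone, Wnt10b among them each time. No share of all genes is given for a single array, so the 6 cannot be set against the 4. Those at least 2-fold lower numbered 0 to 1 with a single knockout array, the 1 being Wnt8b without replicate KO 4. The median member difference was 0.12 with normexp and quantile scaling and 0.17 to 0.21 with a single knockout array. Differences near 0 changed sign: Wnt5b (-0.0041), Fzd7 (0.0021), Dkk3 (-0.019) and Sfrp5 (-0.033) with quantile scaling, Fzd7 (0.053) and Dkk1 (-0.086) with the mean over probes, Dkk3 (-0.0090) and Sfrp5 (-0.038) with normexp and quantile scaling, and Dkk3 (-0.0053), Sfrp5 (-0.011) and Nkd1 (0.00036) in the series matrix values. These are 11 of the 137 comparisons of a member with an alternative that gave it another value, each knockout array alone left out. In the other 126 the direction held, and 147 more kept the reported value by construction. With KO 4 alone, Wnt8b (0.21, against -0.44 as reported), Wnt10a (0.02), Dkk1 (-0.18) and Fzd6 (0.01) also changed sign. With KO 22 alone, Fzd7 (0.04), Dkk3 (-0.0052) and Sfrp5 (-0.11) did. The causes were not tested. Signal near background limits Wnt7a, Wnt8b, Wnt10b and Wif1.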
